A study of Mus musculus with 4 samples.

Results

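The enzymes of oxidative phosphorylation were described through their nuclear genes, which were chosen by symbol alone. Every gene counted in all 4 libraries whose symbol names a subunit of NADH dehydrogenase (Nduf a, b, c, s or v), succinate dehydrogenase (Sdh), the cytochrome bc1 complex (Uqcr), cytochrome c oxidase (Cox4 to Cox8) or ATP synthase (Atp5) was taken, symbols marked -ps for pseudogene left out. This gave 82 genes of the 16953 names found in all 4 libraries and of the 25437 found in any of them. By symbol, 37 belong to complex I, 4 to complex II, 8 to complex III, 15 to complex IV and 18 to complex V. Some symbols and current assignments differ: Ndufa4 is now placed in complex IV, and Atp5s and Atp5sl are named after ATP synthase but are not among its subunits. Atp5l2, counted in complex V, lacks the -ps mark in these data but is annotated in RefSeq as a pseudogene.

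The libraries hold single-cell RNA of wildtype B6C3F1/J whole mouse embryos around diapause, the arrest in which a blastocyst waits before it implants. Those labelled EDG7.5 and EDG9.5 (the labels do not spell EDG out) come from blastocysts flushed from the uterus at 2 times of diapause. The library labelled Reactivated has the stage label EDG9.5 with 30 h of E2 (the labels do not spell E2 out), and its blastocysts were also flushed. The fourth library, E5.5, comes from embryos freed by hand from their implantation sites. Each of the first 3 pooled 200 to 250 embryos and E5.5 pooled 50, so a library mixes many embryos and cannot be split by embryo. After TrypLE dissociation the cells were loaded into BD Rhapsody microwells.

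With 1 library per stage there were no replicates. No test was made, and an effect of the stage cannot be told apart from one of the library or, for E5.5, of how embryos were collected. The 95% intervals given below cover counting error only. Levels are CPM, counts scaled to a fixed total, that is the share of the unique molecular identifiers (UMIs) of all cells of a lineage, summed within a library. A CPM is neither an amount per cell nor a value per transcript length, so levels are compared for 1 gene between sums and not between genes. Fewer cells of a state and less RNA per cell cannot be told apart in such a sum.

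Oxidative phosphorylation passes electrons from NADH at complex I, or from succinate at complex II, through complex III to complex IV, where oxygen is reduced. Complexes I, III and IV pump protons across the inner mitochondrial membrane, and ATP synthase, complex V, uses their return to make ATP. Most subunits are encoded in the nucleus and imported, while a small set of core subunits is encoded by mitochondrial DNA, and complex II is encoded wholly in the nucleus. In the mouse embryo this machinery becomes more active as the blastocyst forms and its trophoblast starts to pump fluid into the cavity.

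Promoters of these genes are known for binding sites of NRF1, ETS-family factors (the family of GABPA, also called NRF2) and YY1. They are described first here, although they were read after the levels had been computed. RefSeq's promoter table (build GRCm38.p6, from 250 bases before to 50 after each gene's start) held 66 of the 82 genes. Strings of 4 kinds were searched on both strands: CGCATGCG, the core of the NRF1 site, which reads the same on either strand, CCGGAAG for ETS factors, AAGATGGC for YY1, and CCAAT. None of these strings contains another. The NRF1 string was in 8 of the 66 promoters (12.1%), those of Atp5g2, Atp5k, Atp5l, Cox6a1, Ndufa8, Ndufa11, Uqcr11 and Uqcrc1, against 1.91% of 27025 promoters of all genes. The ETS string was in 15 (22.7%, against 9.12%), the YY1 string in 8 (12.1%, against 2.88%) and CCAAT in 29 (43.9%, against 37.9%). In all, 27 of the 66 held at least 1 of the NRF1, ETS and YY1 strings. These are matches of letters and not shown to be bound sites. The shares over all genes were not matched for level or base composition. An excess is therefore not shown to be particular to these genes.

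The following 4 promoters are shown because they pair letters with values given further on: Atp5k and Ndufa11 hold the NRF1 string and were higher in Reactivated in every lineage, Cox6a1 holds it, also with other strings, and differed between lineages, and Cox7a2l went the other way. They were chosen after the values were seen. Each run is the 200 bases before the start, 5′ to 3′ on the gene's strand, and capitals mark a searched string. Atp5k lies on the minus strand at chr5:108434400-108434599, Ndufa11 on the plus strand at chr17:56717562-56717761, Cox6a1 on the minus strand at chr5:115348959-115349158 and Cox7a2l on the minus strand at chr17:83514334-83514533, all in GRCm38.p6.
Atp5k: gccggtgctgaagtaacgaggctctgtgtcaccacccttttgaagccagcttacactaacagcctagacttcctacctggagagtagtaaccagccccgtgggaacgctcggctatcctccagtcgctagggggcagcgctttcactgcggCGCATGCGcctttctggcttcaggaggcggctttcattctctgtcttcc
Ndufa11: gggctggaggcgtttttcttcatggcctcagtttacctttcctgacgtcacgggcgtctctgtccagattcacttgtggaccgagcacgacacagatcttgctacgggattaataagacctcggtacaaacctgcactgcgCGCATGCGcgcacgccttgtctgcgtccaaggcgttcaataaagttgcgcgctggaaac
Cox6a1: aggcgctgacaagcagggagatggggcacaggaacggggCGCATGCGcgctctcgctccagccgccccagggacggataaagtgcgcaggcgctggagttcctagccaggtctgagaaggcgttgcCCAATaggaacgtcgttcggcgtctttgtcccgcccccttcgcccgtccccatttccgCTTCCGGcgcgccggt
Cox7a2l: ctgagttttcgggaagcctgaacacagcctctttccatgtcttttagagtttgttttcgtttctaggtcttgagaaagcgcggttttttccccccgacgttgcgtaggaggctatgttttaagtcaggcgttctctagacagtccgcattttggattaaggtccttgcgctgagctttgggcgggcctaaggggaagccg
Cox6a1 carries, in order, the NRF1 string, CCAAT and the ETS string on its other strand, CTTCCGG. Atp5k also has the ETS string in its promoter, outside the stretch shown. In the 200 bases of Cox7a2l none of the 4 strings was found. Of the 25 promoters of genes at least 1.5-fold higher in Reactivated than in EDG9.5 in all 3 lineages, 5 (20%) held the NRF1 string, 4 (16.0%) the ETS string, 4 (16.0%) the YY1 string and 11 (44.0%) CCAAT. Among the other 41 promoters these counts were 3 (7.32%), 11 (26.8%), 4 (9.76%) and 18 (43.9%).

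The files held 1726 and 2566 cell barcodes for the earlier and the later diapause library, 677 for Reactivated and 9560 for E5.5, with a median of 5018.5, 3724.5, 13154 and 8800.5 UMIs per barcode. Any 2 libraries shared 1 to 27 barcodes. Clusters rebuilt within each library, without these genes, gave epiblast-like, endoderm-like and trophoblast-like cells, called epiblast, endoderm and trophoblast below. The cells of these lineages numbered 488, 581 and 259 for EDG7.5, 595, 906 and 552 for EDG9.5, then 206, 302 and 163 for Reactivated, and 2641, 2994 and 3165 for E5.5. Each marker list was far above its level elsewhere in its own lineage: 6865 to 8178 CPM against 414 to 1196 for epiblast, 14519 to 16258 against 141 to 2756 for endoderm, and 6496 to 9465 against 246 to 1060 for trophoblast. Clusters were named by the list that led in them, so this order is built into the names. Markers of other cells were low in all 12 sums, from which clusters with more leading genes of another list had been left out. Decidual stroma reached 0 to 124 CPM with 0 to 6 of 7 markers seen, uterine epithelium 4.55 to 154 (2 to 4 of 8), immune cells 1.35 to 76.4 (2 to 7 of 8), erythroid cells 0 to 1.56 (0 to 3 of 5) and endothelium 7.42 to 230 (2 to 5 of 6). Clusters of 245 and 85 cells in EDG7.5, 398 in EDG9.5 and 463 in E5.5 were left without a lineage. Each scored best for trophoblast but had more leading genes of another list, and in E5.5 the lead was also only 0.11 log2. The trophoblast sums of EDG7.5, EDG9.5 and E5.5 thus lack 330, 398 and 463 such cells, beside the 259, 552 and 3165 they hold. Msx1 was a leading gene of the clusters of 245 and 398 cells. A Reactivated cluster of 45 cells, also with Msx1 among its leading genes, was kept as trophoblast.

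Together the 82 genes gave 29959 to 634631 UMIs per lineage and library. In epiblast their summed level was 18615 and 15653 CPM in the diapause libraries EDG7.5 and EDG9.5, 24457 CPM in Reactivated and 20679 CPM at E5.5. In endoderm it was 15002, 13897, 25830 and 22611 CPM in the same order. In trophoblast it was 21029, 21665, 32695 and 22460 CPM. All 3 lineages were therefore highest in Reactivated, and both diapause libraries were below E5.5 in each.

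Per cell, Reactivated was again the highest library and EDG9.5 the lowest. The median number of UMIs of these genes in a cell was 101, 70.0 and 95 in epiblast, endoderm and trophoblast of EDG7.5, 60, 45.0 and 78.0 for EDG9.5, then 297, 358 and 351 for Reactivated, and 177, 196 and 188 for E5.5, while the cells' median UMIs also differed (3571 to 5503 in the diapause lineages, then 11413 to 14288 for Reactivated and 8629 to 8743.5 for E5.5). Taken as a share of each cell's own UMIs, the quartiles of epiblast cells were 13048 and 17403 CPM in EDG9.5 and 21416 and 26570 in Reactivated. For endoderm cells the ranges between the quartiles were 10934 to 15311 and 22057 to 27866, and for trophoblast cells 15728 to 22379 and 27383 to 37067. These ranges do not overlap in any lineage, and cells of 1 library are not replicates.

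Split by complex, complex III differed most between stages, relative to its lowest library. Its 8 genes summed to 1298, 1131, 2225 and 2026 CPM in epiblast (first EDG7.5, then EDG9.5, Reactivated and lastly E5.5, the order used for every series of 4 values from here), to 1307, 1295, 2630 and 2345 in endoderm and to 1772, 1973, 3567 and 2253 in trophoblast. Complex II was the flattest. Its 4 genes summed to 823, 688, 703 and 636 CPM in epiblast, 741, 641, 882 and 910 in the endoderm and 605, 578, 656 and 680 in the trophoblast.

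Complexes I, IV and V were also highest in Reactivated in every lineage. Complex I summed to 5840, 4914, 6813 and 5974 CPM in epiblast, 4369, 4110, 7472 and 6400 in the endoderm and 5818, 5885, 8523 and 6220 in the trophoblast. Complex IV summed to 5893, 4822, 7497 and 5410 CPM in epiblast, 3776, 3591, 6615 and 5606 in the endoderm and 7036, 7083, 9502 and 5770 in the trophoblast. Complex V summed to 4761, 4098, 7220 and 6632 CPM in epiblast, 4809, 4261, 8230 and 7351 in the endoderm and 5799, 6146, 10447 and 7538 in the trophoblast. Complex IV at E5.5 was below both diapause libraries in trophoblast and below EDG7.5 in epiblast, whereas complex V at E5.5 was above both in every lineage.

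**Figure D1:**
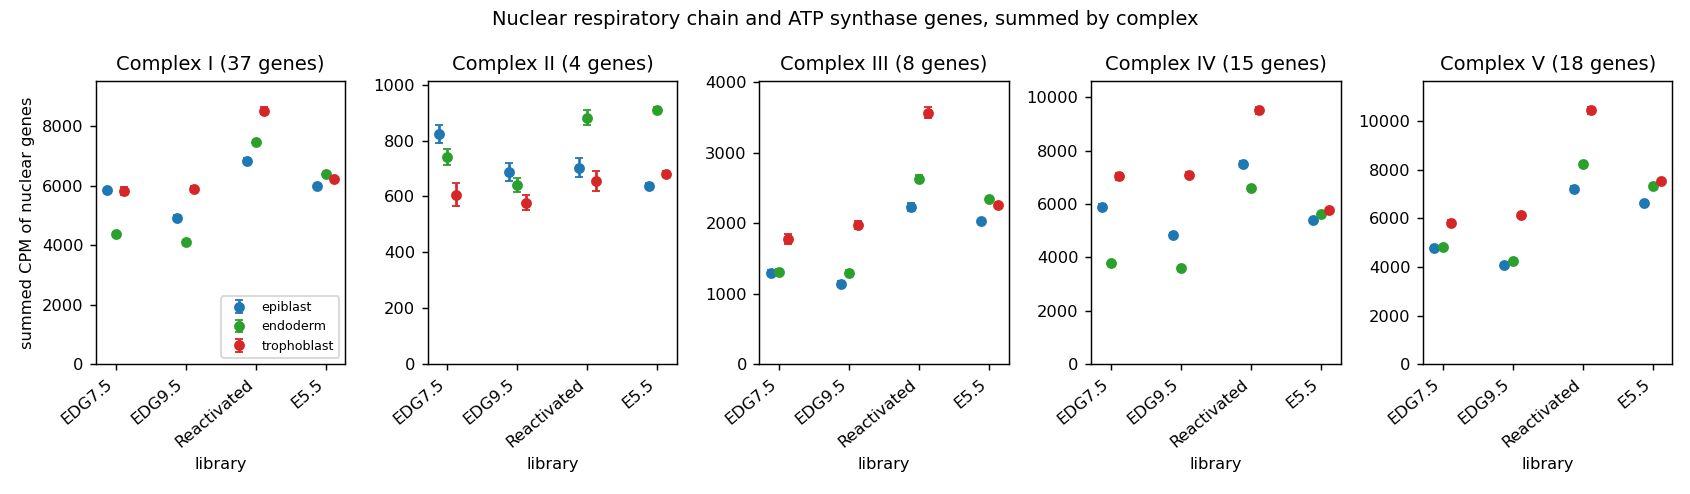
Summed CPM (y axis) of the nuclear genes of complexes I to V in each library (x axis), with 1 point per lineage and bars for 95% Poisson intervals. Complexes I, III, IV and V have their highest points in Reactivated in every lineage, while complex II stays between 578 and 910 CPM.

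Clusters within a lineage were mostly alike. The epiblast clusters of EDG9.5 lay at 15587 to 15938 CPM for the 82 genes and those of Reactivated at 24432 to 24494. Endoderm clusters lay at 13013 to 16853 and 25411 to 26605 CPM. Trophoblast was wider: its EDG9.5 clusters had 17584, 20080 and 29860 CPM, the last with 52 cells and a median of 9336.5 UMIs, and its Reactivated clusters 27913, 31065, 32597 and 38462 CPM. In trophoblast, 1 cluster of EDG9.5 was thus above the lowest cluster of Reactivated. In the other lineages the clusters of the pair did not overlap. The Reactivated trophoblast cluster at 38462 CPM had 45 cells and Msx1 among its leading genes. An EDG9.5 cluster led by Msx1 (398 cells, 18883 CPM) was left without a lineage.

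**Figure D2:**
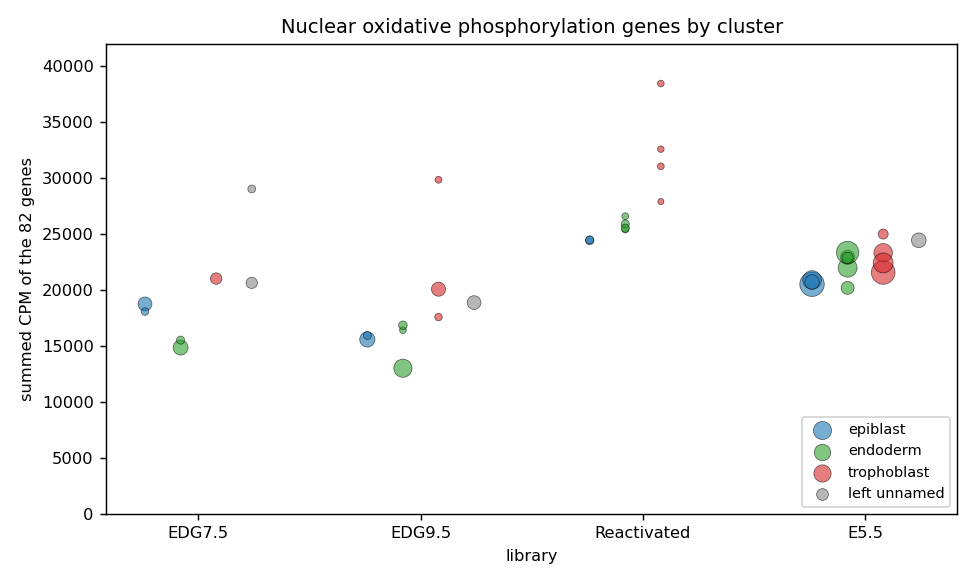
Summed CPM of the 82 genes (y axis) in each cluster of each library (x axis), coloured by lineage, with the point's area growing with the number of cells. The epiblast and endoderm clusters of Reactivated (24432 to 26605) lie above all those of EDG9.5 (13013 to 16853), and 1 EDG9.5 trophoblast cluster (29860) reaches the range of the Reactivated trophoblast (27913 to 38462).

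The 3 comparisons between libraries follow the order of the stages, and consecutive ones share a library: a high value in Reactivated raises its ratio to EDG9.5 and lowers that of E5.5 to it. Log2 ratios were taken after adding 10 CPM to both levels, for genes with a mean of at least 10 CPM in the pair (measured genes), and a gene was counted as higher or lower from 1.5-fold. A plain ratio, where given, is of the CPM themselves.

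Between the diapause libraries few of these genes differed by 1.5-fold. In epiblast, 77 genes were measured, and 0 were 1.5-fold higher in EDG9.5 (0.965% of all measured genes were) and 2 lower (1.26% were): Uqcr10, a small complex III subunit, and Ndufb4, an accessory complex I subunit. Most epiblast genes lay a little below EDG7.5 all the same: 69 of the 77 had a ratio below 0 on the log2 scale, with a median of -0.21 (95% interval over genes -0.23 to -0.15) where all genes had -0.03. Of all measured genes 4886 of 8805 were below 0. The ratio of the summed levels of these genes in epiblast was 0.841 (0.830 to 0.852). In endoderm 0 of 76 were higher (1.23% of all genes) and 0 lower (1.31%), with a median of -0.08 (-0.17 to -0.03). In trophoblast 1 of 75, Cox7a2l, was higher (3.75% of all genes) and 1, Ndufb4, lower (3.16%), with a median of 0.07 (0.00 to 0.12). With TMM scaling the trophoblast counts were 1 and 0. The trophoblast median ranged from -0.07 to 0.12 under other settings of the processing, so no direction is given for that lineage.

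Cox7a2l, which joins complex III to complex IV in respiratory supercomplexes, stood at the top of this comparison in all 3 lineages. It measured 88.6 and 116 CPM in epiblast of EDG7.5 and EDG9.5, 103 and 145 in endoderm and 103 and 199 in the trophoblast. The ratios were 1.31 (1.11 to 1.56), 1.41 (1.23 to 1.62) and 1.93 (1.6 to 2.32). A copy elsewhere in the genome with at least 95% identity over 200 bases or more is annotated for Cox7a2l, so its reads may be divided.

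Sdhb, the iron-sulfur subunit of complex II, was among the lowest in each lineage. It measured 137 and 90.4 CPM in epiblast, 94.8 and 64.7 in the endoderm and 161 and 119 in the trophoblast, which are ratios of 0.662 (0.560 to 0.782), 0.682 (0.574 to 0.810) and 0.739 (0.624 to 0.876). Other low values in epiblast were Uqcr10 with 119 and 74.3 CPM and Ndufb8 with 252 and 171. Those in endoderm were Uqcrc1, a core protein of complex III, with 121 and 88.9 CPM and Atp5g1 with 121 and 91.6. Those in trophoblast were Ndufb9 with 336 and 254 CPM and Ndufs6 with 189 and 144. All of these are differences of under 2-fold.

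At the upper end, the hinge protein gene Uqcrh went from 331 to 386 CPM in endoderm and from 578 to 764 in trophoblast, and Ndufs4, an accessory subunit of complex I, from 79.2 to 94.2 and from 116 to 158. Ndufa6 was at 143 and 181 CPM in endoderm and Cox5b at 122 and 164 in trophoblast. In epiblast the highest after Cox7a2l were Cox6b2 (89.6 and 98.7 CPM), the Rieske protein gene Uqcrfs1 (148 and 162) and Atp5k (245 and 264). None of these passed 1.5-fold.

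By complex, the medians of EDG9.5 over EDG7.5 in epiblast, endoderm and trophoblast were -0.21, -0.06 and 0.07 for complex I, -0.24, -0.17 and 0.03 for complex II, -0.17, -0.12 and 0.04 for complex III, -0.22, -0.02 and 0.07 for complex IV and -0.16, -0.20 and 0.14 for complex V. In complexes I to IV the lowest of these medians was that of epiblast, and the trophoblast medians of every complex changed sign under other settings, as did the endoderm median of complex IV (-0.10 to 0.02).

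Reactivated stood well above EDG9.5. In epiblast 37 of 78 measured genes were at least 1.5-fold higher, against 19.4% of all measured genes, and 4 were lower, against 36.8%. In endoderm 57 of 77 were higher (18.0% of all genes) and 2 lower (29.3%). In trophoblast 37 of 76 were higher (24.9%) and 3 lower (28.5%). The median log2 ratio was 0.56 (0.40 to 0.73) in epiblast, 0.83 (0.70 to 0.95) in endoderm and 0.58 (0.39 to 0.71) in trophoblast, where all genes had -0.25, -0.18 and -0.07. With a minimum mean of 50 CPM the medians of all genes were -0.07, 0.02 and 0.13. The values of all genes thus depend on how abundant the compared genes are, and the shares above are for genes from 10 CPM. The ratio of the summed levels was 1.56, 1.86 and 1.51. TMM scaling, which puts the median of all epiblast genes at 0.01 and that of all endoderm genes at 0.12, gave 57 higher genes in epiblast and medians of 0.86 in epiblast and 1.17 in endoderm.

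Marker levels of other cells moved in some of these sums too. In epiblast the decidual stroma list went from 4.72 CPM to 124 in Reactivated, the endothelium list from 205 to 54.1, the endoderm list from 2751 to 1201 and the trophoblast list from 1060 to 324. In trophoblast the uterine epithelium list went from 111 to 154 CPM, the immune list from 1.35 to 76.4 and the endothelium list from 7.42 to 31.6. Their part in the differences above was not tested.

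**Figure D3:**
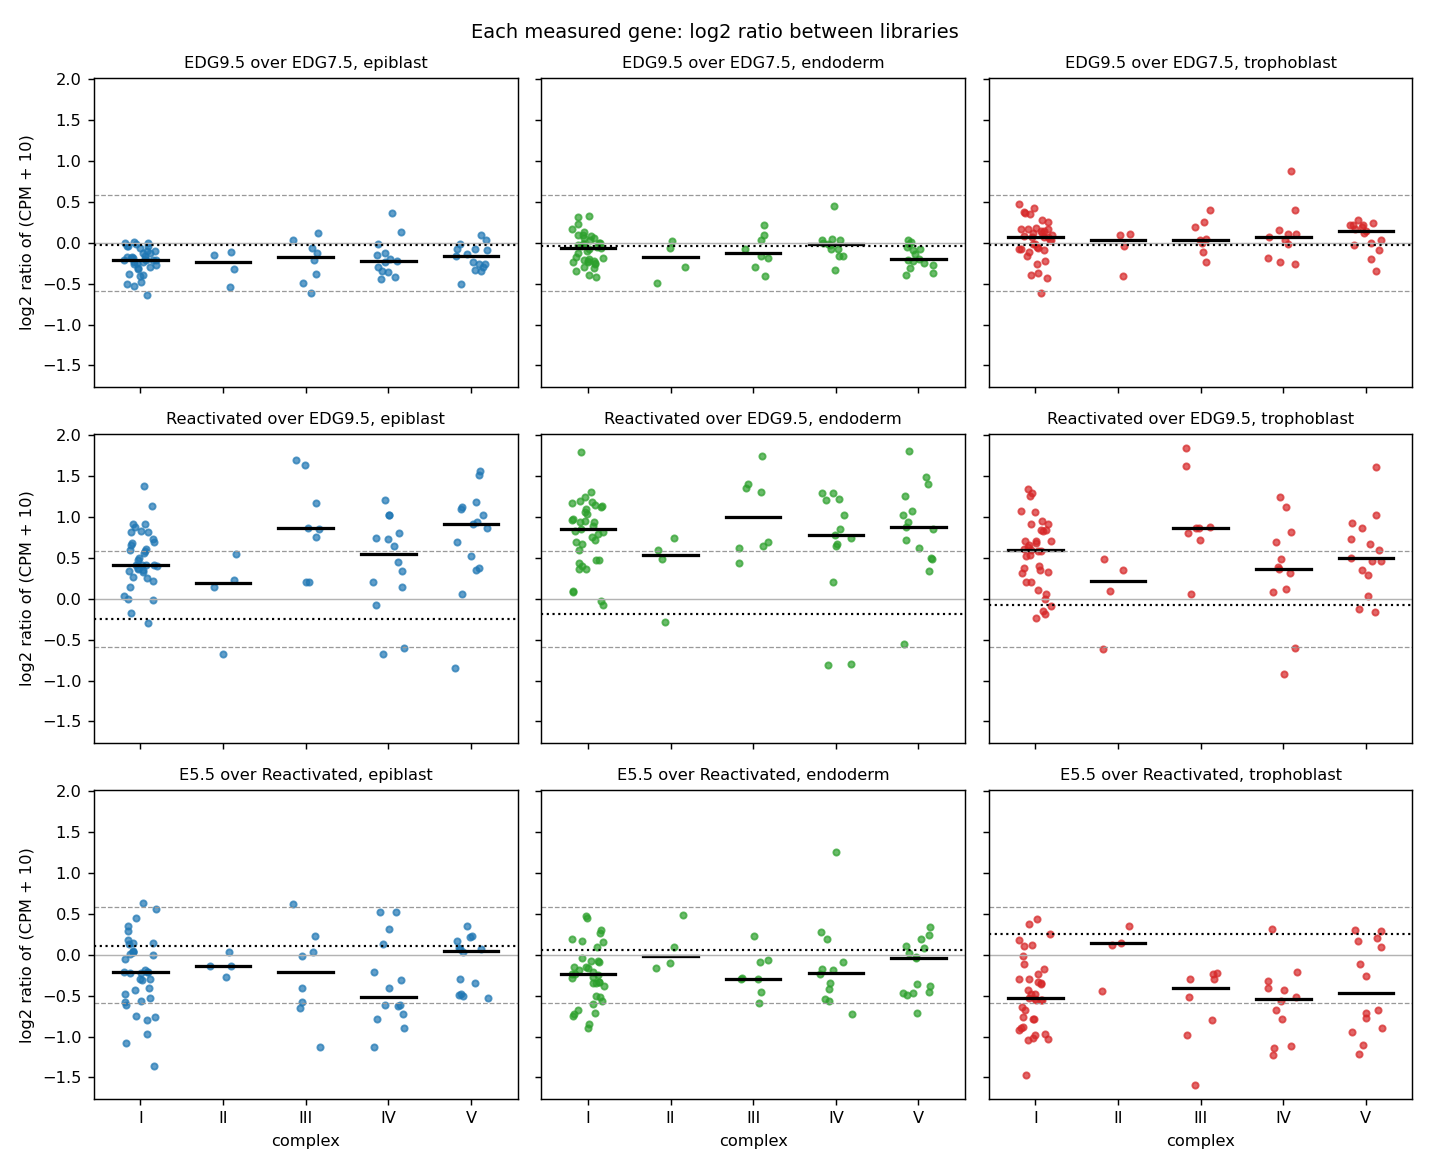
Log2 ratio of CPM + 10 (y axis) of each measured gene, grouped by complex (x axis), in 9 panels for the 3 comparisons and 3 lineages, with a bar at each median. Most points of Reactivated over EDG9.5 lie above 0 (medians 0.56, 0.83 and 0.58), while those of EDG9.5 over EDG7.5 lie close to 0 (medians -0.21, -0.08 and 0.07).

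In complex I, which takes electrons from NADH, 14 of 37 genes were higher in Reactivated in epiblast, 27 in the endoderm and 19 in the trophoblast, and 0 were lower in any lineage. Its medians were 0.42, 0.86 and 0.60. The 7 core genes, whose products carry the flavin and iron-sulfur clusters, had 3, 3 and 2 higher, and the 30 accessory genes 11, 24 and 17.

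Among the core genes, Ndufv2 measured 202, 180, 326 and 281 CPM in epiblast, 172, 170, 390 and 309 in the endoderm and 222, 233, 425 and 288 in the trophoblast. Its Reactivated over EDG9.5 ratio was 1.81 (1.61 to 2.03), 2.29 (2.10 to 2.52) and 1.83 (1.65 to 2.02). Ndufs8 was low in the diapause libraries, with 13.3 to 22.6 CPM in any lineage, and had 29.9, 53.7 and 68.3 CPM in epiblast, endoderm and trophoblast of Reactivated. Ndufv1, which holds the NADH site and the flavin, did not follow them: it measured 76.0, 66.1, 81.7 and 93.7 CPM in epiblast, 65.0, 68.4, 66.6 and 82.5 in the endoderm and 47.7, 63.4, 69.3 and 84.7 in the trophoblast.

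Ndufv3 and Ndufc2, both accessory, separated the lineages. Ndufv3 measured 108, 109, 299 and 193 CPM in epiblast and 107, 114, 420 and 253 in endoderm, but 171, 209, 219 and 114 in trophoblast. Its ratio of Reactivated to EDG9.5 was 2.76 (2.40 to 3.18) in epiblast and 3.69 (3.32 to 4.10) in endoderm, and 1.04 (0.921 to 1.18) in trophoblast, an interval that does not reach those of the other lineages. Ndufc2 measured 131 and 335 CPM in trophoblast of EDG9.5 and Reactivated, a ratio of 2.55 (2.25 to 2.90), against 1.92 (1.65 to 2.24) in epiblast and 1.99 (1.79 to 2.22) in endoderm.

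Ndufs6, which binds zinc, was higher in all 3 lineages, with 162, 111, 254 and 147 CPM in epiblast, 97.9, 78.0, 192 and 169 in the endoderm and 189, 144, 311 and 160 in the trophoblast. Ndufs6 shares exon sequence with its neighbour Mrpl36, and it is not given in the sources used here whether strand was used in counting. The acyl carrier protein gene Ndufab1 was at 25.2 to 32.7 CPM in the lineages of EDG9.5 and at 45.5 to 65.8 in those of Reactivated. Ndufa11, whose promoter is shown above, was at 21.6 to 35.1 CPM in EDG9.5 and 52.4 to 63.8 in Reactivated.

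Some accessory genes were flat or a little lower in Reactivated. Ndufa6 measured 181 and 171 CPM in endoderm and 241 and 201 in the trophoblast, with ratios of 0.944 (0.851 to 1.05) and 0.837 (0.739 to 0.948). Ndufb11 measured 207 and 166 CPM in epiblast, a ratio of 0.805 (0.707 to 0.916), and 206 and 267 in endoderm, a ratio of 1.30 (1.18 to 1.42). Ndufa7 was at 646 and 647 CPM in epiblast.

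Complex II oxidises succinate and belongs to the citrate cycle as well. Of its 4 genes 0, 2 and 0 were higher in Reactivated in epiblast, endoderm and trophoblast, and 1, 0 and 1 lower, with medians of 0.19, 0.54 and 0.22. Sdha, the flavoprotein that binds succinate, measured 314, 290, 179 and 147 CPM in epiblast, 209, 201, 164 and 175 in the endoderm and 149, 160, 172 and 192 in the trophoblast. In epiblast its ratio of Reactivated to EDG9.5 was 0.617 (0.548 to 0.694), in endoderm 0.815 (0.736 to 0.903) and in trophoblast 1.07 (0.932 to 1.24). Both diapause epiblast values of Sdha were thus above every other value of the gene.

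Sdhd and Sdhc encode the membrane anchors. Sdhd, which had the most UMIs of the 4, measured 245, 194, 289 and 262 CPM in epiblast, 340, 277, 473 and 440 in the endoderm and 183, 177, 253 and 276 in the trophoblast. Sdhc measured 127, 114, 126 and 130 CPM in epiblast, 96.6, 98.0, 142 and 203 in the endoderm and 113, 122, 76.9 and 101 in the trophoblast. The trophoblast ratio of Sdhc was 0.628 (0.516 to 0.760), while that of endoderm was 1.45 (1.27 to 1.65). Endoderm was above the other lineages for Sdhd in every library.

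In complex III, which passes electrons from ubiquinol to cytochrome c, 6, 7 and 7 of 8 genes were higher in Reactivated, with medians of 0.87, 1 and 0.87, and 0 were lower. The 5 small subunits and the 3 larger ones differed in epiblast: 5 of 5 small subunits were higher there with a median of 1.17, and 1 of 3 core and Rieske genes with a median of 0.20. In endoderm these were 4 of 5 (1.36) and 3 of 3 (0.65), and in trophoblast 4 of 5 (0.88) and 3 of 3 (0.87).

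Uqcrq and Uqcr10, both small subunits, had the largest ratios of the complex in epiblast and trophoblast. In endoderm Uqcr11 (2.89) and Uqcrb (2.79) came after Uqcrq and before Uqcr10. Uqcrq measured 176, 160, 542 and 341 CPM in epiblast, 201, 190, 662 and 535 in the endoderm and 292, 301, 948 and 308 in the trophoblast. Its Reactivated value was above every other value of the gene in each lineage, with ratios to EDG9.5 of 3.38 (3.02 to 3.78), 3.49 (3.22 to 3.8) and 3.15 (2.91 to 3.41). Uqcr10 measured 119, 74.3, 253 and 110 CPM in epiblast, 89.0, 70.3, 189 and 123 in the endoderm and 84.2, 84.3, 329 and 161 in the trophoblast, with ratios of 3.41 (2.89 to 4.03), 2.69 (2.35 to 3.10) and 3.90 (3.36 to 4.52). In epiblast Uqcr10 at E5.5 was back within the range of the diapause libraries.

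Uqcrh, the hinge protein and the complex III gene with the most UMIs, had another pattern: 236, 242, 450 and 698 CPM in epiblast, 331, 386, 527 and 622 in the endoderm and 578, 764, 794 and 672 in the trophoblast. Its highest values in epiblast and endoderm were at E5.5, and its trophoblast values stood within a narrower range. The Rieske gene Uqcrfs1 measured 148, 162, 187 and 220 CPM in epiblast, 171, 185, 288 and 270 in the endoderm and 180, 216, 401 and 344 in the trophoblast. Uqcrc1 went from 81.8 to 157 CPM in epiblast, from 88.9 to 145 in endoderm and from 87.0 to 168 in trophoblast.

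**Figure D4:**
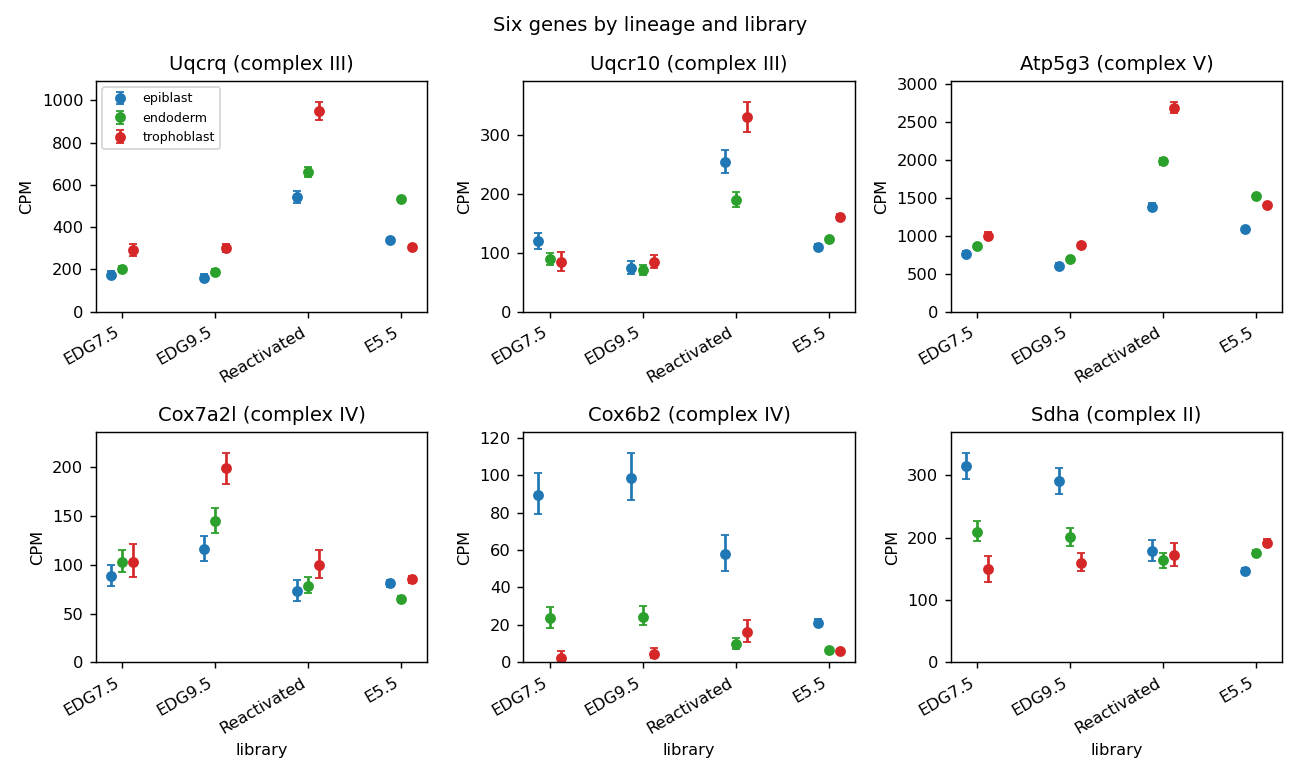
CPM (y axis) of 6 genes in each library (x axis), with 1 point per lineage and 95% Poisson intervals as bars. Uqcrq, for example, peaks in Reactivated in all lineages (542, 662 and 948 CPM), while Cox7a2l peaks in EDG9.5 (116, 145 and 199 CPM).

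Complex IV, which reduces oxygen, was the most divided. In Reactivated 7 of 14 measured genes were higher in epiblast, 10 of 13 in endoderm and 4 of 12 in trophoblast, and 2 were lower in each, with medians of 0.55, 0.78 and 0.37. Cox7b measured 319, 316, 652 and 420 CPM in epiblast, 212, 220, 525 and 414 in the endoderm and 328, 345, 835 and 480 in the trophoblast. Cox7c was similar in shape, with 497, 405, 831 and 481 CPM, 236, 210, 498 and 298, and 358, 298, 659 and 299. For both, the Reactivated value was the highest of each lineage, at 2.05 to 2.42 times EDG9.5, and both have a near-identical copy.

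Cox6b1, which lies at the face where cytochrome c docks, measured 751, 591, 933 and 499 CPM in epiblast, 396, 389, 974 and 726 in the endoderm and 981, 1058, 1719 and 727 in the trophoblast. Its ratios of Reactivated to EDG9.5 were 1.58 (1.48 to 1.69), 2.50 (2.36 to 2.66) and 1.62 (1.55 to 1.71). Cox6a1 was the complex IV gene with the highest mean CPM over all sums. It measured 1137, 845, 969 and 579 CPM in epiblast, 661, 629, 1289 and 865 in the endoderm and 1173, 1164, 1637 and 736 in the trophoblast. Its ratio was 2.05 (1.95 to 2.15) in endoderm but 1.15 (1.08 to 1.22) in epiblast, where EDG7.5 had the highest value.

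Of the 76 genes measured in every lineage, Cox7a2l alone was at least 1.5-fold lower in Reactivated in all 3. It measured 116 and 73.1 CPM in epiblast, 145 and 78.6 in the endoderm and 199 and 100 in the trophoblast, with ratios of 0.628 (0.520 to 0.757), 0.541 (0.472 to 0.618) and 0.503 (0.426 to 0.592). At E5.5 it stayed low, at 81.0, 64.8 and 85.1 CPM. Cox5a, a matrix-side subunit, was lower in trophoblast of Reactivated, with 220, 226, 146 and 184 CPM, a ratio of 0.644 (0.559 to 0.740). In epiblast Cox5a measured 141, 108, 139 and 206 CPM.

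In complex V 10, 11 and 7 of 15 genes were higher in Reactivated, with medians of 0.91, 0.88 and 0.50, and its parts were uneven. The membrane rotor, the c-ring, had 2 of 2 measured genes higher in each lineage and medians of 1.37, 1.65 and 1.24. The catalytic F1 head and central stalk had 2 of 5 higher in each, with medians of 0.53, 0.50 and 0.46. The peripheral stalk had 3, 4 and 1 of 4 (0.89, 0.96 and 0.48), and the other membrane subunits 2 of 2 in each (1.11, 1.34 and 0.98).

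Atp5g1 and Atp5g3 encode the same mature c subunit behind different import sequences. Atp5g3, the complex V gene with the most UMIs, measured 766, 607, 1387 and 1092 CPM in epiblast, 864, 697, 1982 and 1521 in the endoderm and 1004, 876, 2693 and 1404 in the trophoblast. Its ratios were 2.29 (2.15 to 2.43), 2.84 (2.72 to 2.97) and 3.08 (2.93 to 3.22). Atp5g1 measured 98.0, 100, 317 and 255 CPM in epiblast, 121, 91.6, 346 and 208 in the endoderm and 236, 270, 500 and 210 in the trophoblast, with ratios of 3.16 (2.74 to 3.65), 3.78 (3.36 to 4.26) and 1.85 (1.69 to 2.04). Atp5g1 therefore had a larger ratio than Atp5g3 in epiblast and endoderm and a smaller one in trophoblast.

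The membrane subunit gene Atp5k measured 245, 264, 576 and 410 CPM in epiblast, 218, 214, 586 and 454 in the endoderm and 425, 502, 1034 and 476 in the trophoblast, and Reactivated was the highest in each lineage. Atp5h, of the peripheral stalk, measured 159, 152, 454 and 319 CPM in epiblast, 193, 186, 406 and 294 in the endoderm and 305, 344, 476 and 274 in the trophoblast. The ratios of Atp5h were 2.99 (2.66 to 3.36), 2.18 (2 to 2.38) and 1.38 (1.26 to 1.51). Near-identical copies are annotated for Atp5k, Atp5g1 and Atp5h.

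Of the 5 F1 genes, Atp5b and Atp5d passed 1.5-fold in each lineage. Atp5b, the catalytic beta subunit, measured 586, 497, 806 and 849 CPM in epiblast, 539, 469, 724 and 736 in the endoderm and 460, 452, 689 and 849 in the trophoblast, and its highest value was at E5.5 in every lineage, by less than counting error in endoderm. Atp5a1, the alpha subunit, measured 1138, 948, 1239 and 1314 CPM, 1156, 998, 1409 and 1384, and 1030, 1058, 1299 and 1393. Atp5d, the delta subunit of the central stalk, had the largest ratio of the F1 genes in each lineage, with 82.2 and 179 CPM in epiblast, 132 and 262 in the endoderm and 215 and 365 in the trophoblast of EDG9.5 and Reactivated. Atp5s, which is no subunit, was lower in epiblast, at 22.8 and 8.17 CPM.

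In all, 27 of the 76 genes measured in every lineage were higher in Reactivated in all 3, where 9.01% of 6885 genes were, and 1, Cox7a2l, was lower in all 3, where 12.7% were. The 3 lineages come from the same pair of libraries and are not independent. By complex the 27 were 12 in complex I, 5 in complex III, 3 in complex IV and 7 in complex V, with 0 in complex II. Near-identical copies are annotated for Atp5g1, Atp5k, Atp5o, Cox7b, Cox7c, Ndufa12, Ndufab1, Ndufs6 and Uqcrb among them.

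From Reactivated to E5.5 the medians of these genes were below 0 while those of all genes were above it. In epiblast 2 of 77 were at least 1.5-fold higher (18.5% of all genes) and 16 lower (15.9%), with a median of -0.21 (-0.34 to -0.00). In endoderm 1 of 76 was higher (12.8%) and 10 lower (10.7%), with a median of -0.22 (-0.33 to -0.09). In trophoblast 0 of 75 were higher (27.2%) and 29 lower (12.1%), with a median of -0.48 (-0.64 to -0.32). The medians of all genes were 0.11, 0.06 and 0.25. The count of lower genes was above the share of all genes by the most in trophoblast. With TMM scaling epiblast had 5 genes higher and 12 lower. Without the genes that have a near-identical copy 10, 6 and 18 were lower.

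By complex, the E5.5 over Reactivated medians in epiblast, endoderm and trophoblast were -0.21, -0.24 and -0.53 for complex I, -0.14, -0.01 and 0.14 for complex II, -0.21, -0.29 and -0.41 for complex III, -0.51, -0.22 and -0.54 for complex IV and 0.05, -0.04 and -0.47 for complex V. The trophoblast median of complex II (-0.08 to 0.16 under other settings) and the epiblast median of complex V (-0.03 to 0.14) changed sign, and the trophoblast median of complex V ranged from -0.68 to -0.08. Of the lower genes, complex I held 7, 7 and 14, complex II 0, 0 and 0, complex III 2, 1 and 3, complex IV 7, 1 and 5 and complex V 0, 1 and 7. Within complex V the c-ring had medians of -0.32, -0.54 and -1.07 and the F1 genes 0.07, 0.02 and 0.10.

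Uqcrq had the lowest trophoblast value, from 948 to 308 CPM, a ratio of 0.325 (0.309 to 0.342), against 0.629 (0.594 to 0.666) in epiblast and 0.808 (0.777 to 0.840) in endoderm. Cox6b1 went from 1719 to 727 CPM in trophoblast, a ratio of 0.423 (0.408 to 0.439), and Atp5g1 from 500 to 210, a ratio of 0.420 (0.393 to 0.450). In epiblast the lowest were Uqcr10 with 253 and 110 CPM, Ndufb5 with 278 and 137, and Cox6b1 with 933 and 499. In endoderm they were the accessory complex I genes Ndufa2 with 497 and 262 CPM, Ndufa12 with 87.2 and 47.8, and Ndufa8 with 159 and 91.9. Ndufb5 shares exon sequence with Mrpl47 and Ndufa12 has a near-identical copy.

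Ndufa4 went the other way. It measured 414, 317, 472 and 737 CPM in epiblast, 455, 401, 718 and 890 in the endoderm and 345, 328, 543 and 741 in the trophoblast, and its E5.5 value was the highest of each lineage. Its ratios of E5.5 to Reactivated were 1.56 (1.47 to 1.66), 1.24 (1.19 to 1.28) and 1.36 (1.28 to 1.45). Cox5a was the 1 gene past 1.5-fold in endoderm, with 97.9 and 248 CPM, a ratio of 2.53 (2.30 to 2.79), and also had 139 and 206 in epiblast and 146 and 184 in trophoblast.

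Other high values at E5.5 were Uqcrh (450 and 698 CPM) and Cox5b (102 and 150) in epiblast, Sdhc (142 and 203), Ndufb6 (152 and 212) and Atp5j, coupling factor 6 of the peripheral stalk (361 and 461), in endoderm, and Sdhc (76.9 and 101) and Atp5b (689 and 849) in trophoblast. In all 3 lineages 5 of 74 genes were lower at E5.5, namely Cox7c, Ndufb2, Ndufb4, Ndufv3 and Uqcr10 (2.74% of all genes were), and 0 were higher (2.94% were). Between the diapause libraries 0 of 75 were higher and 0 lower in all 3, where 0.0433% and 0.116% of all genes were.

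**Figure D5:**
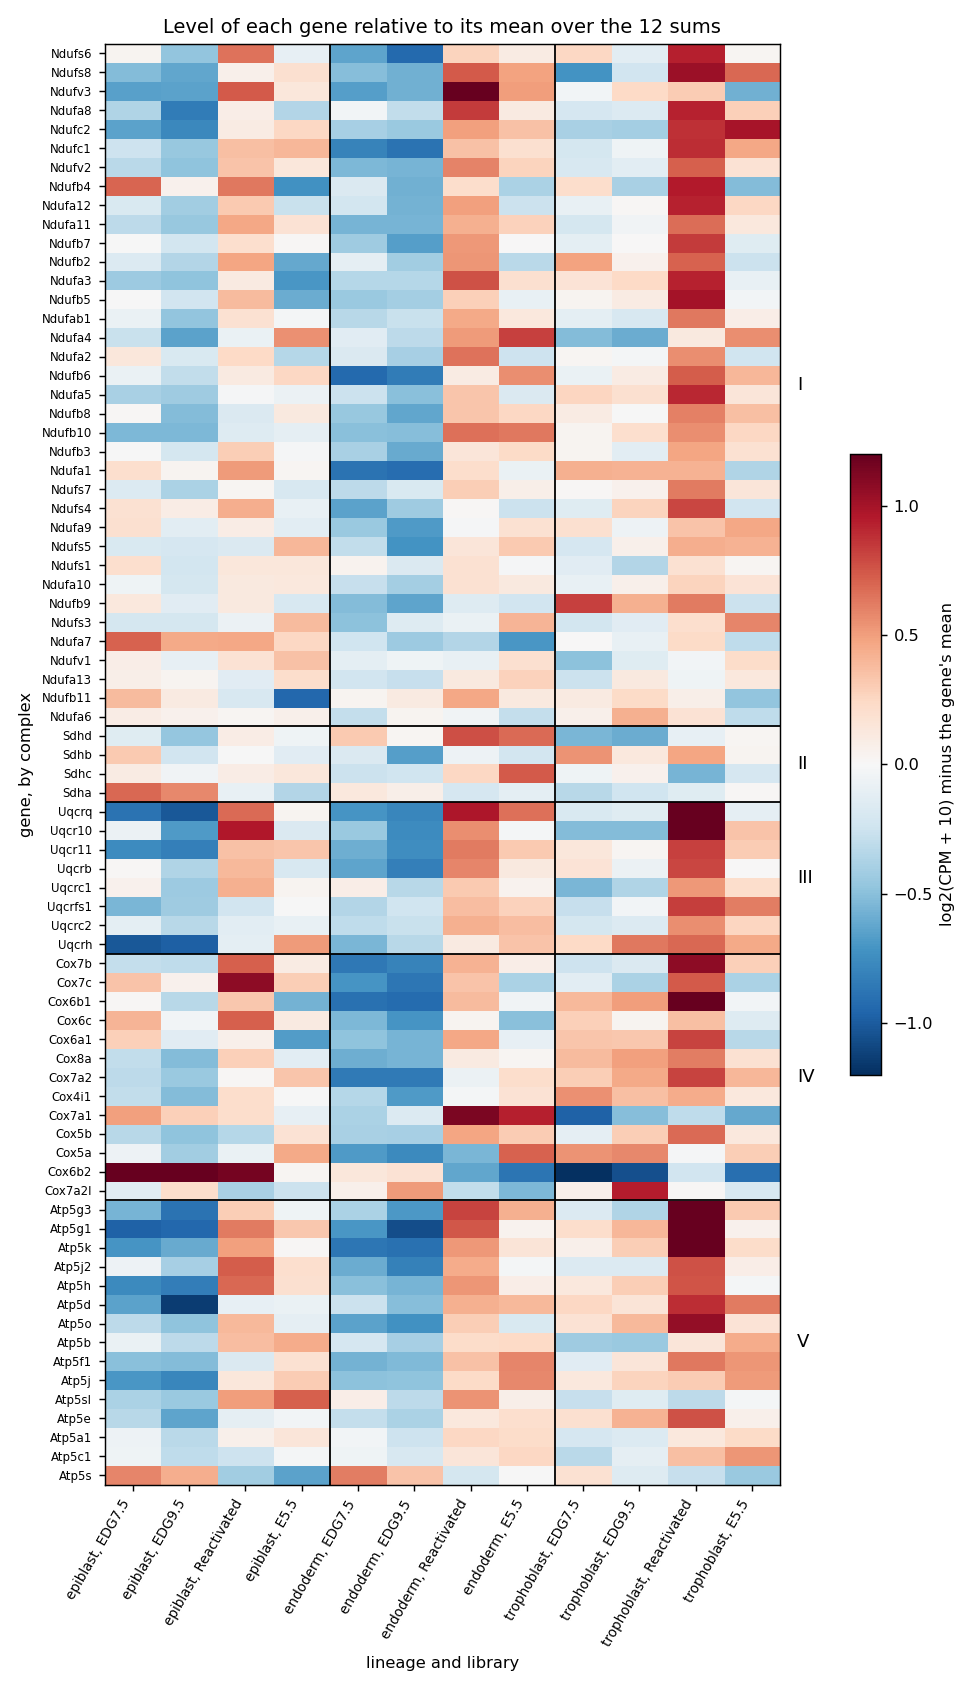
Each of 76 genes (y axis, grouped by complex) in each lineage and library (x axis), coloured by its log2(CPM + 10) minus its own mean over the 12 sums. The Reactivated columns are the warmest for most genes of complexes I, III, IV and V, and Cox7a2l is among the few genes warmest in EDG9.5.

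The lineages were ranked gene by gene within each library, over genes with a mean of at least 50 CPM in the library's 3 sums. In EDG9.5 trophoblast was the highest lineage for 56 of 65 genes, in Reactivated for 51 of 70 and in EDG7.5 for 40 of 66. At E5.5 the ranking was mixed, with 18 genes highest in epiblast, 23 in the endoderm and 26 in the trophoblast of 67. The median log2 range over the lineages was 0.60, 0.70, 0.65 and 0.31, and 35, 43, 42 and 16 genes had a range past 1.5-fold. In these genes the lineages were therefore closest to each other at E5.5. The ranking and the ranges were not computed for all genes, so they are not shown to be particular to these. The E5.5 sums also hold the most UMIs, 23181111 to 28255457 per lineage, against 1424629 to 4656502 in the other libraries. Counting error widens ranges more in smaller sums, and its part here was not tested. In EDG7.5 the epiblast was highest for 20 genes, of which 11 were in complex I.

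In EDG9.5 trophoblast was highest for 10 of 11 complex IV genes, 12 of 13 complex V genes, 7 of 8 complex III genes and 25 of 29 complex I genes, and for 2 of 4 complex II genes. The widest ranges were those of Uqcrh (242, 386 and 764 CPM in epiblast, endoderm and trophoblast), Atp5g1 (100, 91.6 and 270) and Cox6b1 (591, 389 and 1058). In EDG7.5 they were Ndufb9 (204, 127 and 336), Ndufa1 (399, 182 and 466) and Cox6b1 (751, 396 and 981). Endoderm had the lowest value of Ndufb9, Ndufa1 and Cox6b1 there.

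In Reactivated the widest ranges were Uqcrfs1 (187, 288 and 401 CPM), Cox5b (102, 187 and 218) and Atp5d (179, 262 and 365), each lowest in epiblast. At E5.5 they were all in complex I: Ndufv3 (193, 253 and 114), Ndufb11 (94.3, 208 and 135) and Ndufa7 (558, 285 and 376). Ndufa7 was highest in epiblast in all 4 libraries, with 768, 646, 647 and 558 CPM, against at most 393 in endoderm and 549 in the trophoblast.

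Several subunits of complex IV have tissue isoforms, and the shares of these in their sets were set apart by lineage. Cox6b2, known from testis, made up 10.7% (9.46 to 12) of Cox6b UMIs in EDG7.5 epiblast, 14.3% (12.7 to 16.0) in that of EDG9.5, 5.85% (4.97 to 6.83) in Reactivated and 4.06% (3.71 to 4.42) at E5.5. In endoderm the shares of Cox6b2 were 5.62%, 5.93%, 1% and 0.912%, and in trophoblast 0.214%, 0.444%, 0.926% and 0.863%. As a level, Cox6b2 measured 89.6, 98.7, 58.0 and 21.1 CPM in epiblast, 23.6, 24.5, 9.88 and 6.68 in the endoderm and 2.11, 4.72, 16.1 and 6.34 in the trophoblast. Epiblast was thus above the other lineages in every library, and the diapause libraries were above the others in epiblast and endoderm.

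Cox7a2l made up 19.8%, 26.3%, 14.2% and 12.9% of the UMIs of Cox7a1, Cox7a2 and Cox7a2l in epiblast, 30.3%, 37.7%, 15.2% and 11% in the endoderm and 16.4%, 25.2%, 11.6% and 13.1% in the trophoblast, with EDG9.5 highest in each. Cox7a2, the main isoform of most tissues, measured 340, 310, 428 and 536 CPM in epiblast, 232, 231, 404 and 494 in the endoderm and 524, 585, 751 and 562 in the trophoblast. Cox7a1, the heart and muscle isoform, was low but unequal: 6.14, 8.79, 35.9 and 30.1 CPM in endoderm, a Reactivated over EDG9.5 ratio of 4.08 (2.80 to 6.12), and 0.702 to 7.03 in trophoblast. In epiblast Cox7a1 measured 19.6, 15.7, 14.4 and 9.62 CPM.

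Cox7b2 measured 1.40, 2.36, 18.7 and 8.76 CPM in epiblast, against at most 1.69 in the other lineages. In the diapause libraries it had 0 to 6 UMIs in any lineage, with 1.40 and 1.69 CPM in trophoblast, and in the later libraries it was seen mainly in epiblast. Reactivated was 7.91 (3.38 to 22.6) times EDG9.5 in epiblast. Its share of Cox7b and Cox7b2 UMIs there was 0.438%, 0.741%, 2.79% and 2.04%. Cox4i1, at 438 to 1034 CPM, stood for nearly all of the Cox4 pair: Cox4i2 was at most 0.121% (0.0147 to 0.438). Cox8a measured 728, 622, 1093 and 819 CPM in epiblast, 596, 607, 970 and 913 in the endoderm and 1174, 1266, 1376 and 1022 in the trophoblast. The Cox6a2, Cox8b, Cox8c and Ndufa4l2 symbols fell outside the 82 genes and had 0 to 6, 0 to 8, 0 to 26 and 6 to 231 UMIs per library.

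For the c subunit of ATP synthase, the Atp5g1 share of Atp5g UMIs was 11.3%, 14.1%, 18.6% and 18.9% in epiblast, 12.2%, 11.5%, 14.8% and 12% in the endoderm and 19.0%, 23.5%, 15.6% and 13% in the trophoblast. Trophoblast had the largest share in both diapause libraries and epiblast in the later libraries. Atp5g2 was at most 0.717% of the set. Atp5l (3.93 to 12.1 CPM), Atp5g2 (1.40 to 6.51), Atp5l2 (0 to 1.40) and Cox4i2 (0 to 0.778) were near the floor in every sum. Near-identical copies are annotated for Atp5l among others, and such levels may be set by how shared reads were counted.

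Other genes of the pathway were counted with the same rule. Of all measured genes 19.4%, 18.0% and 24.9% were higher and 36.8%, 29.3% and 28.5% lower in epiblast, endoderm and trophoblast. In epiblast and endoderm the counts of higher assembly factors, citrate cycle genes and regulators below are near or under those shares. Of Cyc1, Cycs and Atpif1, which encode cytochrome c1, cytochrome c and the inhibitor of ATP synthase, 3 of 3 were higher in Reactivated than in EDG9.5 in each lineage, with medians of 0.91, 1.11 and 0.98. Assembly factors of the complexes, of which 41 of 48 were found, had medians nearer to 0 in epiblast and endoderm than the 82 genes, a difference that was not tested: 7 were higher and 7 lower of 36 in epiblast (median -0.09), 5 and 3 of 36 in endoderm (0.15) and 11 and 2 of 35 in trophoblast (0.44). Their summed level in trophoblast was 1.51 times that of EDG9.5, as for the 82 genes. Citrate cycle genes had 2 higher and 2 lower of 13 in epiblast (-0.12), 2 and 2 in the endoderm (0.21) and 4 and 2 in trophoblast (0.15). Regulators of mitochondrial biogenesis had 1 higher and 2 lower of 11 (0.17), 0 and 4 of 12 (-0.07) and 3 and 2 of 12 (0.28).

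The same shares of all genes, 19.4%, 18.0% and 24.9% higher, stand beside the next lists. Genes of mitochondrial import had 7 higher and 1 lower of 13 in epiblast (0.67), 6 and 0 in the endoderm (0.57) and 11 and 0 in trophoblast (1.23). Mitochondrial ribosomal protein genes had 44 and 0 of 71 (0.71), 37 and 0 of 70 (0.63) and 55 and 1 of 71 (0.88). Cytosolic ribosomal protein genes had 23 higher and 2 lower of 86 (0.31), 7 and 14 (-0.24) and 15 and 3 (0.10). In the earlier pair, EDG9.5 over EDG7.5, the cytosolic ribosomal medians were 0.22, 0.38 and 0.65, beside -0.21, -0.08 and 0.07 for the 82 nuclear genes.

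Subunits encoded by mitochondrial DNA had a median opposite in sign to the nuclear one in endoderm and trophoblast, and not in epiblast. Of 8 measured, 3 were higher and 1 lower in Reactivated than in EDG9.5 in epiblast (median 0.40, 95% interval over genes -0.98 to 1.57). In endoderm these were 0 and 3 (-0.45, -1.68 to 0.14) and in trophoblast 0 and 3 (-0.27, -1.48 to 0.56). Of all genes 36.8%, 29.3% and 28.5% were lower. Each interval spans 0, so the medians give no direction for these few genes. The ratio of their summed levels was 1.27, 0.727 and 0.757. UMIs of all mitochondrially encoded genes, not only those of subunits, were 5.86%, 4.92%, 6.18% and 5.54% of all UMIs in epiblast, 9.78%, 7.82%, 6.08% and 6.70% in the endoderm and 10.6%, 8.36%, 6.56% and 4.18% in the trophoblast. The subunit genes among them summed to 55199, 44557, 56597 and 50026 CPM in epiblast. Their sums were 88772, 69708, 50655 and 56921 CPM in the endoderm and 94949, 73356, 55506 and 33833 in the trophoblast. The nuclear genes were 1.86%, 1.57%, 2.45% and 2.07% in epiblast, 1.5%, 1.39%, 2.58% and 2.26% in the endoderm and 2.10%, 2.17%, 3.27% and 2.25% in the trophoblast. In endoderm and trophoblast the mitochondrially encoded share was thus higher in both diapause libraries than in Reactivated and E5.5, while the nuclear share was highest in Reactivated in every lineage.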

How the data were processed

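The deposited values are whole-number counts per gene and cell barcode for 4 libraries, made by the authors. The submitters' processing notes name the build mm10, and the tools featureCounts 1.6.4 (with Subread), STAR 2.7.1a and UMI-tools 1.0.1. They were read as UMI counts. Which annotation was used, whether strand was kept and how barcodes were picked is not given in the sources used here. Samples were grouped by their labels; an E4.5 sample that the protocols mention is not analysed here.

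Cells with at least 1000 UMIs, 500 genes and under 25% mitochondrially encoded UMIs were kept (1670 and 2458 of the earlier and later diapause library, 673 of Reactivated, 9541 of E5.5), less 12, 7, 2 and 278 Scrublet doublets. Each library was clustered alone in scanpy 1.11.5 on log CPM of 2000 variable genes without the 82 genes, mitochondrially encoded and ribosomal protein genes (30 principal components, 15 neighbours, Leiden resolution 1). A cluster took a lineage when that marker list led by at least 0.5 log2 and 3 of its markers reached 20 CPM, unless more genes of another list were among its 10 leading genes. These names are rebuilt and not the authors' own.

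UMIs were summed per lineage and library. CPM have exact Poisson, shares exact Clopper-Pearson and ratios exact conditional binomial 95% intervals, which cover counting error only; medians have order-statistic intervals over genes, which are not replicates. Log2 ratios add 10 CPM, and genes with a mean of at least 10 CPM in the pair were measured. Counts were also simulated as Poisson draws with 200 genes altered and no variation between libraries or cells. In these, 95.3% to 96.0% of the ratio intervals over the 9 comparisons held the true ratio. Of genes made to differ 2-fold, 78.0% to 88.5% passed 1.5-fold. The intervals assume the same Poisson model, so their coverage here checks the computation only.

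Genes are named by a rule: the one with the most CPM per complex, the 4 highest and 3 lowest log2 ratios per comparison and lineage at a mean of at least 50 CPM, the 3 widest ranges over lineages per library, and every alternative isoform. One gene is counted in the sums, counts and medians but is not reported singly here. Others are named as examples of a role or for their promoter, after their values were seen. The genes and all lists were chosen with earlier results of these data known. Near-identical copies were sought in GENCODE M21 transcripts: 80 of the 82 genes were matched, 22 had a copy with at least 95% identity over 200 bases, and 5 and 25 overlapped an exon of another gene on the same and the other strand. TMM factors came from edgeR 4.0.16 in R 4.3.3. Python 3.11.15, numpy 2.4.6, scipy 1.17.1 and pandas 2.3.3 were used. The alternatives covered cell filters, doublets, clustering, scaling, thinning, the added CPM, the minimum, the fold and the list.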

Additional observations from a re-analysis of the deposited data

How the results depend on the processing

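No paired analysis was possible because each stage has 1 library and the labels give no shared replicate numbers. Over 19 alternatives, of which keeping the unnamed clusters in their best-scoring lineage and leaving out genes with a near-identical copy were chosen after seeing the data, no median of the 82 genes reversed in Reactivated over EDG9.5 or E5.5 over Reactivated: they stayed at 0.40 to 0.86 in epiblast, 0.63 to 1.17 in endoderm and 0.43 to 0.65 in trophoblast in the first, and at -0.23 to -0.13, -0.25 to -0.15 and -0.56 to -0.37 in the second. The ends for epiblast and endoderm in Reactivated over EDG9.5 came from TMM scaling (0.86 and 1.17) and from 50 CPM added (0.40 and 0.63). In EDG9.5 over EDG7.5 the trophoblast median was -0.03 with at least 2000 UMIs per cell, -0.07 with under 10% mitochondrially encoded UMIs, -0.03 when all variable genes were clustered, 0.12 with totals without ribosomal and mitochondrially encoded genes, -0.01 both with cells thinned to 1000 UMIs and as a mean over cells, and -0.05 with the unnamed clusters kept, and the epiblast median was -0.26 when thinned; the cause was not tested. By complex, with cells thinned to 1000 UMIs the E5.5 over Reactivated median of complex II in trophoblast was -0.08 and that of complex V in epiblast -0.03, against 0.14 and 0.05 in the report. The latter was also at -0.00 with under 10% mitochondrially encoded UMIs and at 0.00 with no minimum.

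Counts of higher genes moved by over 1.5 times as follows. A 2-fold limit left 14, 27 and 11 in Reactivated over EDG9.5, 0 in epiblast of E5.5 over Reactivated and 0 in trophoblast of EDG9.5 over EDG7.5, by its construction. TMM scaling gave 57 in epiblast of Reactivated over EDG9.5 and 5 in epiblast of E5.5 over Reactivated. Thinning gave 5, 3 and 2 in E5.5 over Reactivated and 1 in epiblast and in endoderm of EDG9.5 over EDG7.5. In epiblast of E5.5 over Reactivated there were 0 with under 10% mitochondrially encoded UMIs and 1 with 50 CPM added. With 1 CPM added there were 2 in endoderm of E5.5 over Reactivated and 2 in trophoblast of EDG9.5 over EDG7.5, where leaving out genes with copies left 0. Counts of lower genes in E5.5 over Reactivated ranged over 4 to 20, 0 to 12 and 10 to 38 in epiblast, endoderm and trophoblast, the low ends from the 2-fold limit; in Reactivated over EDG9.5 they ranged over 0 to 4, 0 to 3 and 0 to 3. Medians by complex moved 13 times and stayed within that spread 797 times, counts of lower genes 39 and 132 times, and values of single genes 505 and 6369 times. Depth limits the smallest sums most: trophoblast of EDG7.5 has 29959 UMIs of the 82 genes.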

Other observations

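The clusters left without a lineage had levels of the 82 genes within or above the range of the named clusters. In EDG7.5 a cluster of 245 cells led by H19, Msx1 and Igf2 had 20644 CPM, with 5626, 638, 1730, 6707 and 5943 CPM in complexes I to V. A second one of 85 cells, led by BC051665 and with C3 and Dcn among its leading genes, had 29039 CPM, with 7365, 645, 2516, 10651 and 7862 CPM. In EDG9.5 a cluster of 398 cells led by Msx1, H19 and Igf2 had 18883 CPM, with 5189, 536, 1739, 6029 and 5391 CPM. The E5.5 cluster of 463 cells was led by Prl3d1 of the trophoblast list, with Pecam1 and Cdh5 of the endothelium list among its leading genes. It had 24451 CPM, with 6681, 654, 2542, 6172 and 8402 CPM.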
